A study of Mus musculus with 32 samples.

Results

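Pank4, Mndal, Ifi203, Rasl12, Fn3krp, Gm45104, Cd209g and Serpina3m are 8 of the 55573 genes in a count table of mouse hippocampal neurons. They were selected on their soma counts, because the counts of Mettl3 KO and WT neurons barely overlapped there. The soma values below are therefore a description without a test, and the genotype was tested in the neurite libraries. The spread behind those tests was estimated over all 16 libraries, soma included, and the contrasts of KCl and compartment in soma also use the soma counts. Pank4, Mndal, Ifi203 and Rasl12 were lower in KO and Fn3krp, Gm45104, Cd209g and Serpina3m were higher.

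Neurons of newborn mice were grown on porous membranes, which let the soma be scraped from the top and the neurites from the bottom. RNA-seq covered 16 libraries in 8 groups of 2, made from 50 ng of total RNA each. WT neurons came from C57BL/6 mice and KO neurons (genotype Mettl3-/-) from the strain Mettl3Flox/Flox. Each genotype was sampled as soma and as neurites, untreated (Ctrl) or after 2 h in 55 mM KCl. Cells of both genotypes received an AAV that carries Cre-P2A-dTomato at DIV 7 (50000 vg per cell), so the virus does not separate them. All cultures were silenced from DIV 14 for 16 h with tetrodotoxin (1 µM), which blocks sodium channels, and the NMDA receptor antagonist D-AP5 (50 µM). According to the study's methods the Cre was driven by the hSyn promoter, and each culture pooled the pups of a single litter, with replicates from distinct litters. That promoter is neuronal, so Mettl3 may have stayed intact in glia, which the methods do not state. No WT library came from the floxed strain and no KO library from C57BL/6, so the loss of Mettl3 and the strain cannot be told apart as the source of any difference between genotypes given here.

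Total counts ran from 33789183 to 71394235 per library. Mettl3, which encodes the methyltransferase that writes m6A on mRNA, had 815 to 1354 counts in WT soma and 283 to 642 in KO soma, and 414 to 644 in WT neurites against 122 to 476 in KO neurites. KO and WT did not overlap in CPM (counts divided by the library's TMM-scaled size in units of 1e6) within either compartment, but edgeR did not call Mettl3 in neurites over both treatments (log2 difference −0.95, SE 0.27, adjusted p = 0.0768). Reads from outside the deleted part still count, and Mettl3 overlaps Tox4 on the opposite strand, which counting without strand does not separate. The study itself reported that METTL3 protein was almost gone and m6A reduced in cultured KO neurons. It also reported that the floxed exon was lost from the reads of KO soma. Both KCl-treated KO replicate 1 libraries (soma and neurites) stood apart in glial markers. The summed level of 12 microglia and macrophage markers was 635 CPM and 475 CPM there against 22.2 to 104 CPM in the other 14 libraries, and that of 8 oligodendrocyte lineage markers 3650 CPM and 7370 CPM against 58.6 to 193 CPM. The summed level of 10 neuron markers was 2030 CPM and 2040 CPM there against 4360 to 13100 CPM elsewhere. The main results in neurites are also given without these libraries.

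Mndal and Ifi203 belong to the Ifi200 (PYHIN) family, a cluster of interferon-inducible genes whose products sense DNA or regulate that sensing in the nucleus and cytosol. Serpina3m belongs to a mouse expansion of serine protease inhibitors related to human SERPINA3, and Cd209g to the lectins related to DC-SIGN, which bind sugars on pathogens. Pank4 is a member of the pantothenate kinase family that is not an active kinase, Fn3krp is a kinase that removes sugars from glycated proteins, and Rasl12 is a small GTPase related to Ras. Gm45104 is a provisional gene model without a known product. 

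Mndal and Ifi203, and Cd209g and Cd209f, are neighbouring paralogues that moved together, and the sequences before their start sites are shown here because they share long stretches. RefSeq (GRCm38.p6) gives start sites for 6 of the 8 genes. Below are the 250 bases before the start, 5′ to 3′, of Mndal (chr1:173880188-173880437, minus strand), Ifi203 (its second start, chr1:173942493-173942742, minus strand), Cd209g (chr8:4134486-4134735, plus strand), its neighbour Cd209f (chr8:4105765-4106014, minus strand) and the Ifi200 gene Ifi202b (chr1:173982845-173983094, minus strand). Capitals mark the longest stretch that is identical in Mndal and Ifi203 (96 bases) and in Cd209g and Cd209f (154 bases). For Ifi202b they mark its longest match with Ifi203 (9 bases). This is near the 8 bases shared by Pank4 and Fn3krp, and by Rasl12 and Pank4, which are not paralogues.
Mndal: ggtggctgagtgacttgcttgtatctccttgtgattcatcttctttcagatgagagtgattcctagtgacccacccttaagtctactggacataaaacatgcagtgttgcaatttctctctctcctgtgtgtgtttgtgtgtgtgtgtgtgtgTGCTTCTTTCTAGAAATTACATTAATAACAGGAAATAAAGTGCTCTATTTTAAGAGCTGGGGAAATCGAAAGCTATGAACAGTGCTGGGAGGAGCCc
Ifi203: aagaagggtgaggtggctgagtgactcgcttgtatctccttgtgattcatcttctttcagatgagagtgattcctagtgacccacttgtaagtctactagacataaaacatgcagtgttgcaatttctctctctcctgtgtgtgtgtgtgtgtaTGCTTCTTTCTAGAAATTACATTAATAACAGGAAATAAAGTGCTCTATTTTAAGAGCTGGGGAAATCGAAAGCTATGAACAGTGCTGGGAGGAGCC
Ifi202b: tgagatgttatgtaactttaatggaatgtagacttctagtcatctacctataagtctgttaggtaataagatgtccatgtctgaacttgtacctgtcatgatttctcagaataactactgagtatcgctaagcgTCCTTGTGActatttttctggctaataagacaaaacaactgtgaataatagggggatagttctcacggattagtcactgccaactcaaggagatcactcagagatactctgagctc
Cd209g: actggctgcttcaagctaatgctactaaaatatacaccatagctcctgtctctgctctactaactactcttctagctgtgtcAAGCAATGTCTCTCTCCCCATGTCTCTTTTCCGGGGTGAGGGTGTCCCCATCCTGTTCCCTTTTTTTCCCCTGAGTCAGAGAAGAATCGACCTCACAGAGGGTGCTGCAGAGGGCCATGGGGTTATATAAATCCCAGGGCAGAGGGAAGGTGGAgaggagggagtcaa
Cd209f: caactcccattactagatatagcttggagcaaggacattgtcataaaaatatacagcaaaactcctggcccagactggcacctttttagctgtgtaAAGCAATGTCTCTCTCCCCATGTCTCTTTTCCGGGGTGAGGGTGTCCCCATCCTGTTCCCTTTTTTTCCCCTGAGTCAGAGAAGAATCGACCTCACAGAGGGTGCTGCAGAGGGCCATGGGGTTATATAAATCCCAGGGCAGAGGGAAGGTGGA
RefSeq lists another start for Mndal and for Ifi203, which are not shown. The shared stretch of Mndal and Ifi203 holds 1 match to the core of the interferon-stimulated response element (GAAANNGAAA, searched on both strands), which begins 36 bases before the start of Mndal and 35 bases before that of Ifi203. This core was found in 2.98% of all 32851 windows of this length. It was not found in the window of Ifi202b or in that of the other Ifi203 start, and the other Mndal window holds 1 match on the opposite strand. The stretch of Cd209g and Cd209f holds TATAAA, which starts 43 bases before the start of Cd209g and 29 bases before that of Cd209f and was found in 12.4% of all windows on either strand.

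Mndal was close to absent and Ifi203 was low in KO neurons. Mndal (ENSMUSG00000090272, chr1:173849126-173942491, minus strand) and Ifi203 (ENSMUSG00000039997, chr1:173920407-173942672, minus strand) are protein-coding genes that overlap on the same strand in the annotation, and reads in shared exons were not assigned to either. In WT soma, Mndal stood at 9.61 CPM and 9.13 CPM in the untreated and at 10.8 CPM and 6.15 CPM in the KCl-treated libraries. In KO soma it stood at 0.389 CPM and 0.246 CPM untreated and at 0.329 CPM and 0.109 CPM with KCl, where the lowest library held 5 counts. All 4 WT libraries thus lay above all 4 KO libraries, and the mean of KO soma was 3.01% of that of WT soma. In neurites, Mndal stood at 8.02 CPM and 12.1 CPM in untreated WT, 12 CPM and 9.12 CPM in KCl-treated WT, 0.461 CPM and 0.362 CPM in untreated KO, and 0.452 CPM and 0.394 CPM in KCl-treated KO. WT and KO neurites were again apart, and all 4 KO neurite libraries were close to each other. The log2 difference over both treatments was −4.61 (SE 0.38, edgeR adjusted p = 9.8e-05, 4 libraries against 4), a 24.4-fold lower level. By the study's methods, untreated and KCl-treated neurons shared a litter and replicates were duplicates, so the 4 neurite libraries of a genotype may stand for only 2 litters, here and in every test over both treatments.

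Ifi203 followed the same pattern at a smaller fold. It stood at 8.04 CPM and 8.62 CPM in untreated and 6.76 CPM and 5.71 CPM in KCl-treated WT soma. In KO soma it stood at 0.735 CPM and 0.458 CPM untreated and at 0.914 CPM and 0.262 CPM with KCl. The groups did not overlap. In neurites, Ifi203 ran at 8.62 CPM and 10.2 CPM in untreated WT and at 7.66 CPM and 8.03 CPM in KCl-treated WT. The KO neurites held 0.966 CPM and 1.09 CPM untreated and 1.03 CPM and 1.18 CPM with KCl. Every KO neurite library was below every WT library, by 6.48-fold at the closest, and the log2 difference was −3.01 (SE 0.35, edgeR adjusted p = 0.00118). Multi-mapping reads were counted, so Mndal and Ifi203 may share reads.

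The other genes of the Ifi200 family did not share a direction. Of 17 listed genes, 14 were in the table and 9 were tested in neurites. Mndal and Ifi203 fell, Ifi202b rose, and the median log2 difference was −1.16 against 0.07 over all genes tested. Ifi202b, whose product binds DNA and is known to restrain the sensor Aim2, starts 42.2 kb from Ifi203. It held 0 to 4 counts in the WT libraries and 20 to 181 in KO, without overlap, with a log2 difference of 5.14 in neurites (SE 0.91, edgeR adjusted p = 0.0122). Its mean in WT neurites was 1.5 counts, so it passed the filter on low counts through KO alone. Its highest values, 2.44 CPM and 3.15 CPM, were those of both KCl-treated KO replicate 1 libraries, against 0.436 to 0.944 CPM in the other KO libraries. Ifi205 (log2 −2.09, SE 0.58, adjusted p = 0.0716), Ifi207 (2.36, SE 0.77, adjusted p = 0.108) and Ifi211 (−1.07, SE 0.46, adjusted p = 0.189) did not pass the test in edgeR. Without both KCl-treated KO replicate 1 libraries 6 of the 9 were called, with Ifi207 higher and Ifi205 and Ifi211 lower beside those 3.

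The wider interferon response gave no call. Of 30 tested genes from a list of 32 interferon-stimulated genes (such as Isg15, Ifit1 and Irf7), edgeR called 0, with 13 at an unadjusted p under 0.05, and DESeq2 called 5. The median log2 difference was 0.99 against 0.07 over all genes. The summed level of the list was 124 to 181 CPM in WT, 138 to 202 CPM in the other KO libraries, and 326 CPM and 489 CPM in the KCl-treated KO replicate 1 soma and neurites. Without those libraries the median was 0.35, and Stat2 was called lower.

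Serpina3m rose from close to absence. The gene (ENSMUSG00000079012, chr12:104338486-104394257, plus strand) is protein-coding and overlaps Serpina3k, with which it shares its start in the annotation, and Serpina3l-ps. In WT soma it stood at 0.123 CPM and 0.154 CPM untreated and at 0.228 CPM and 0.188 CPM with KCl, or 10 to 13 counts. In KO soma it stood at 4.82 CPM and 7.68 CPM untreated and at 14.7 CPM and 4.97 CPM with KCl. KO lay above WT in every library. In neurites, WT held 0.150 CPM in both untreated libraries and 0.0970 CPM and 0.0825 CPM with KCl. KO neurites held 5.25 CPM and 5.13 CPM untreated and 28.4 CPM and 5.19 CPM with KCl. The 2 highest values were those of the KCl-treated KO replicate 1 libraries, and the other 6 KO libraries lay within 4.82 to 7.68 CPM. The log2 difference in neurites was 6.30 (SE 0.61, edgeR adjusted p = 0.000330), and 5.46 without those libraries (adjusted p = 2.41e-05).

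Of the 11 listed genes of the Serpina3 cluster, 9 were tested in neurites over both treatments and 6 rose, where 3.07% of all genes were called. The 6 include Serpina3m, which was chosen on soma counts of the same cultures, so the count partly follows from that choice. The median log2 difference of the 9 was 2.49. Serpina3c (0.98, SE 0.34), Serpina3f (2.04, SE 0.51) and Serpina3i (1.21, SE 0.61) did not pass the test. In untreated neurites only Serpina3m was called, and with KCl only Serpina3k and Serpina3m. Besides Serpina3m, edgeR called Serpina3k (5.31, SE 0.68, adjusted p = 0.00214), Serpina3h (3.87, SE 0.66, adjusted p = 0.0111), Serpina3g (3.05, SE 0.60, adjusted p = 0.0211), Serpina3j (2.49, SE 0.55, adjusted p = 0.0321) and Serpina3n (2.09, SE 0.44, adjusted p = 0.0275). Serpina3n, a marker of reactive astrocytes, was by far the most abundant, at 91.4 to 120 CPM in WT, 206 to 329 CPM in the other KO libraries, and 643 CPM and 1300 CPM in the KCl-treated KO replicate 1 soma and neurites. Serpina3k, Serpina3h and Serpina3m had a mean of 2.75, 5.75 and 5.25 counts in WT neurites and passed the filter through KO alone. The same 6 genes were called without those libraries, with a median of 1.65. Reads that map to several places were counted, so Serpina3n and the other paralogues may share reads. The 6 rises may therefore not be separate. The summed level of 10 astrocyte markers was 1160 to 3150 CPM in WT, 1940 to 6810 CPM in the other KO libraries, and 9850 CPM and 19400 CPM in the KCl-treated KO replicate 1 libraries. The part of the glial markers in the Serpina3 values was not tested. More cells of a type and more RNA per cell cannot be told apart in such bulk samples.

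Cd209g and its neighbour Cd209f rose together. Cd209g (ENSMUSG00000079168, chr8:4134098-4137707, plus strand) is protein-coding and overlaps no other gene. It held 7 to 16 counts in WT soma, or 0.197 CPM and 0.123 CPM untreated and 0.190 CPM and 0.101 CPM with KCl. In KO soma it stood at 4.45 CPM and 4.86 CPM untreated and at 12.2 CPM and 3.16 CPM with KCl. The groups were apart, and the KCl-treated KO libraries differed more from each other than any other pair of the gene. In neurites, WT held 0.374 CPM and 0.120 CPM untreated and 0.267 CPM and 0.248 CPM with KCl. KO neurites held 4.78 CPM and 10.7 CPM untreated and 6.90 CPM and 14.2 CPM with KCl. The 2 highest neurite values were those of KO replicate 2, with KCl and untreated, where the summed microglia and macrophage markers were 104 CPM and 92.5 CPM, against at most 72.8 CPM in WT and 475 CPM in KCl-treated KO neurites replicate 1. The part of these markers in the Cd209g values was not tested. The log2 difference in neurites was 5.12 (SE 0.56, edgeR adjusted p = 0.000786), and 5.32 without the KCl-treated KO replicate 1 libraries (adjusted p = 0.000254).

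Cd209f lies beside Cd209g on the other strand (start distance −31.3 kb), and its level over the 16 libraries was the most like that of Cd209g among 23335 genes (Pearson r of log2(CPM + 1) = 0.995). It held 5 to 31 counts in WT and 211 to 1473 in KO, with a log2 difference of 5.07 in neurites (SE 0.67, edgeR adjusted p = 0.00257). Reads that map to several places were counted, so reads of these paralogues may be shared. Cd209a, Cd209b, Cd209c, Cd209d and Cd209e reached at most 0.361 CPM in any library and were not tested.

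Pank4 was low in all KO libraries and high in all WT libraries. The gene (ENSMUSG00000029056, chr4:154964123-154980938, plus strand) is protein-coding and overlaps no other gene. In soma, WT stood at 15.5 CPM and 17.2 CPM untreated and at 16.4 CPM and 14.5 CPM with KCl. KO soma stood at 1.51 CPM and 1.64 CPM untreated and at 1.44 CPM and 1.46 CPM with KCl. KO was 9.52% of WT on average, with no overlap and little spread within either genotype. In neurites, WT held 10.9 CPM and 10.8 CPM untreated and 10.2 CPM and 9.12 CPM with KCl. KO neurites held 1.71 CPM and 1.59 CPM untreated and 1.23 CPM and 2.04 CPM with KCl. The log2 difference in neurites was −2.64 (SE 0.22, edgeR adjusted p = 0.000102), 6.23-fold lower.

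The rest of coenzyme A synthesis did not pass the test. Of 8 genes, all tested, only Pank4 was called in neurites, and the median log2 difference was 0.20. The kinases Pank1, Pank2 and Pank3, which catalyse the first step of the pathway, had values of 0.52 (SE 0.32), 0.93 (SE 0.37) and −0.03 (SE 0.30). Coasy, which encodes the enzyme of the last steps, had a value of 0.47 (SE 0.15, edgeR adjusted p = 0.0953).

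Fn3krp was high in all KO libraries, which spanned 1.9-fold. The gene (ENSMUSG00000039253, chr11:121421401-121431288, plus strand) is protein-coding and overlaps no other gene. It stood at 2.14 CPM and 2.28 CPM in untreated and at 1.90 CPM and 1.91 CPM in KCl-treated WT soma. In KO soma it stood at 17.4 CPM and 33.0 CPM untreated and at 22.8 CPM and 28.9 CPM with KCl. KO exceeded WT in every library, and the untreated KO soma replicates spanned the whole KO range. In neurites, WT held 2.00 CPM and 2.01 CPM untreated and 1.62 CPM and 1.49 CPM with KCl. KO neurites held 23.8 CPM and 26.8 CPM untreated and 31.2 CPM and 29.7 CPM with KCl. The log2 difference in neurites was 3.97 (SE 0.24, edgeR adjusted p = 1.1e-05), 15.7-fold higher. Fn3k, the related kinase whose gene starts 13.5 kb away, had a log2 difference of 0.04 (SE 0.38, adjusted p = 0.962).

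Rasl12 showed the smallest difference and overlaps Slc51b on the opposite strand. The gene (ENSMUSG00000041696, chr9:65398506-65414853, plus strand) is protein-coding. WT soma stood at 8.13 CPM and 8.23 CPM untreated and at 8.77 CPM and 7.81 CPM with KCl. KO soma stood at 1.56 CPM and 1.27 CPM untreated and at 1.54 CPM and 1.55 CPM with KCl. The KO mean was 17.9% of the WT mean in soma, without overlap. In neurites, WT held 8.38 CPM and 7 CPM untreated and 9.68 CPM and 7.90 CPM with KCl. KO neurites held 2.66 CPM and 3.20 CPM untreated and 1.23 CPM and 2.33 CPM with KCl, so the untreated KO neurites came closest to WT. The log2 difference over both treatments was −1.85 (SE 0.25, edgeR adjusted p = 0.00292). It was −1.39 in untreated neurites (SE 0.35, adjusted p = 0.222; DESeq2 adjusted p = 0.00327, and edgeR adjusted p = 0.0264 without both KCl-treated KO replicate 1 libraries) and −2.31 in KCl-treated neurites (SE 0.36, adjusted p = 0.0198). The difference between these values, −0.92 (SE 0.49), did not pass the test (adjusted p = 0.869). Of 5 Ras-like genes on the list (Rasl10a, Rasl10b, Rasl11a, Rasl11b and Rasl12), only Rasl12 was called in neurites, and without both KCl-treated KO replicate 1 libraries Rasl11a was called as well (higher).

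Gm45104 had the largest difference of the 8 in neurites over both treatments. The gene model (ENSMUSG00000109209, chr7:18396516-18400865, minus strand) has the biotype TEC, used for models that still need experimental proof, is 4350 bases long and overlaps no other gene. WT soma held 6 to 15 counts, or 0.173 CPM and 0.185 CPM untreated and 0.114 CPM and 0.217 CPM with KCl. KO soma held 398 to 1227 counts, or 9.42 CPM and 9.49 CPM untreated and 17.5 CPM and 8.68 CPM with KCl. The KO libraries lay at least 40.1-fold above the WT libraries in soma. In neurites, WT held 0.243 CPM and 0.0300 CPM untreated and 0.146 CPM and 0.165 CPM with KCl, and the lowest of these rests on 1 count. KO neurites held 19.9 CPM and 15.1 CPM untreated and 18.3 CPM and 16.5 CPM with KCl. The log2 difference in neurites was 6.82 (SE 0.48, edgeR adjusted p = 3.2e-05), and its size rests on few WT counts.

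**Figure D1:**
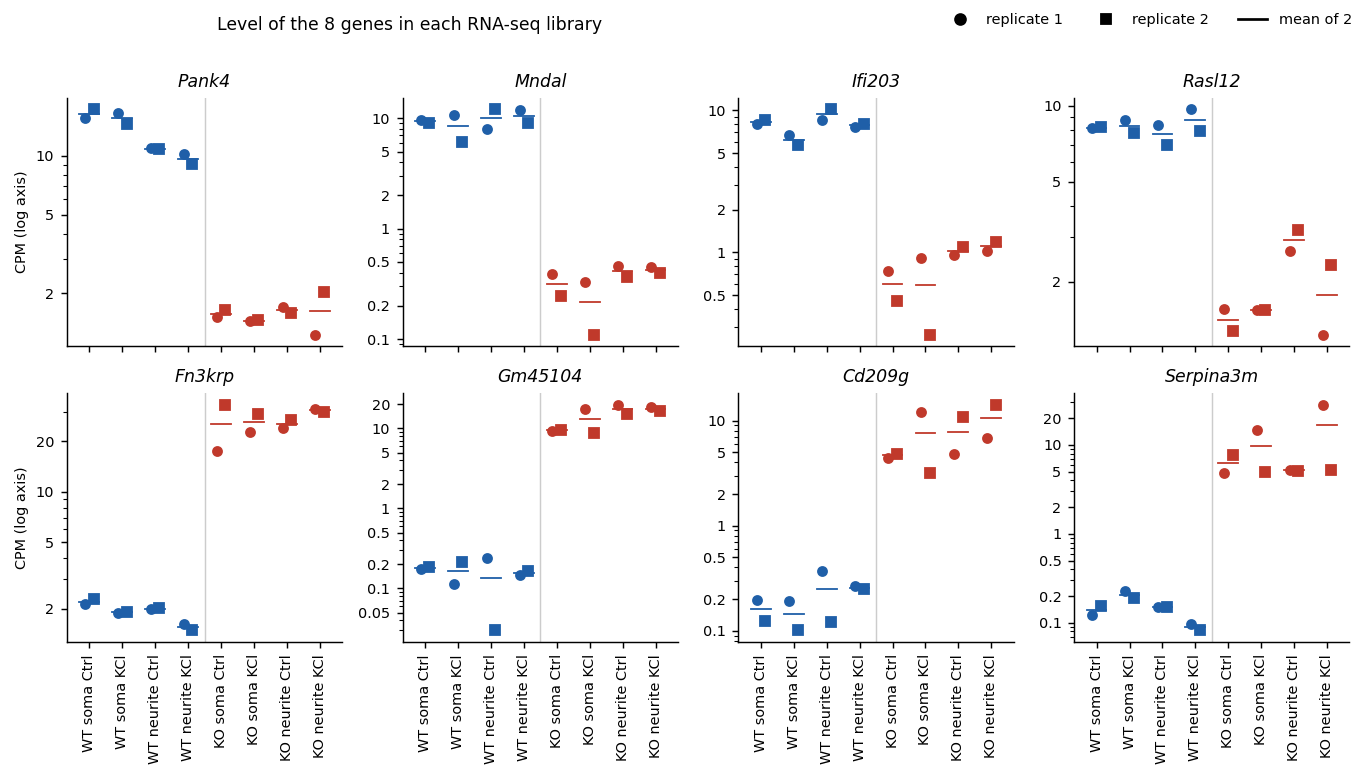
Level of each of the 8 genes in the 16 RNA-seq libraries, as CPM on a log axis, with WT in blue and KO in red; circles are replicate 1, squares replicate 2 and lines the mean of 2 libraries. For each gene the 8 WT points and the 8 KO points do not overlap, and the closest approach is that of Rasl12 (2.18-fold).

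Across the 8 genes, the counts of calls were as follows. In soma, the contrast that chose the genes, edgeR placed 8 of 8 past the threshold of 1.5-fold and an adjusted p of 0.05 in untreated and in KCl-treated libraries, where 0.189% and 0.212% of all genes were called. Nothing is read from those counts, since the same contrast chose the genes. With 2 libraries against 2, in untreated neurites 7 of 8 were called (all but Rasl12) against 0.188% of all genes, and in KCl-treated neurites 8 of 8 against 0.436%. Over both treatments 8 of 8 were called against 3.07% (684 of 22311 genes), 4 lower and 4 higher. The counts within a treatment fell in most runs without 1 library. Such a run sets 1 library against 2, so it cannot tell the part of a given library from lost power. Without any one untreated neurite library 2 to 4 of the 8 were called untreated (2 without either KO replicate, 4 without either WT replicate). Without KCl-treated WT neurite replicate 1, WT replicate 2 or KO replicate 1 the count with KCl was 2, 4 or 6, and with the 4 KCl-treated neurite libraries alone it was 0. Over both treatments it was 8 without any one library, and 7 (all but Rasl12) when the 8 neurite libraries alone gave the spread. The soma and neurites of an insert are the same culture, so the neurite libraries are not independent cultures, and the p-values measure only the spread between these libraries. Gm45104 and Serpina3m had a mean below 10 counts in WT neurites and passed the filter on low counts through the KO libraries alone.

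**Figure D2:**
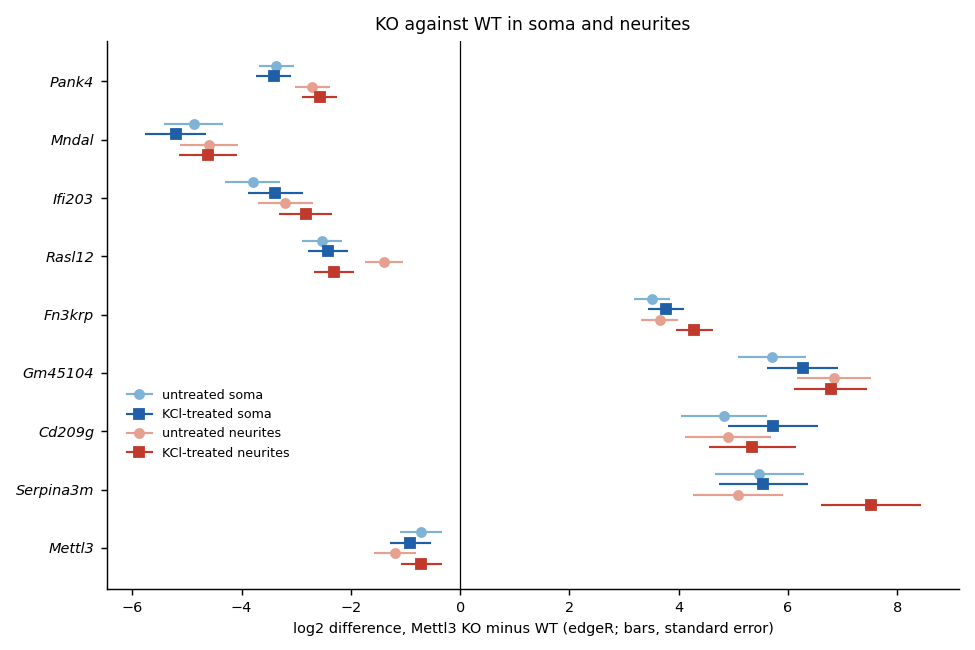
Log2 difference between Mettl3 KO and WT from edgeR for the 8 genes and for Mettl3, with bars for the standard error; blue is soma, red is neurites, circles are untreated and squares KCl-treated libraries (2 against 2 each). The 8 genes keep their side of 0 in all 4 comparisons, the soma values are those that chose them, and Mettl3 lies between −0.71 and −1.19.

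Levels compared between genes per length of exon turned over from WT to KO. In untreated WT soma, mean FPKM (CPM per kb of exon) ran from 4.69 for Pank4 (SD 0.362, n = 2) over 2.58 for Mndal, 1.25 for Rasl12, 1.24 for Ifi203 and 0.877 for Fn3krp to 0.0806 for Serpina3m, 0.0444 for Cd209g and 0.0411 for Gm45104. In this order the neighbours Rasl12 and Ifi203, and Cd209g and Gm45104, did not differ beyond their replicate spread. In untreated KO soma it ran from 10 for Fn3krp (SD 4.38, n = 2) over 3.63 for Serpina3m, 2.17 for Gm45104 and 1.29 for Cd209g to 0.452 for Pank4, 0.215 for Rasl12, 0.0889 for Ifi203 and 0.0876 for Mndal. In KO, the genes that were lowest in WT thus had values above those that were highest there. These are the soma values that chose the genes, so the turn follows largely from that choice and is only a description.

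The 8 genes were not the only genes whose libraries were apart. Of 23335 genes that averaged 10 counts or more per library, 14.5% did not overlap between KO and WT in soma, the 8 among them, 15.0% in neurites and 3.42% in all 16 libraries (293 above and 506 below WT). At least 2-fold apart in all 16 libraries were 58 genes (0.249%), 23 higher and 35 lower in KO, among them all 8, with gaps of 35.7-fold for Gm45104, 21.1-fold for Serpina3m, 13.4-fold for Mndal, 8.46-fold for Cd209g, 7.63-fold for Fn3krp, 4.83-fold for Ifi203, 4.48-fold for Pank4 and 2.18-fold for Rasl12. The other 50 include Ifi202b, Cd209f, Serpina3k and Serpina3g. The 58 lie on 16 chromosomes, with 12 on chromosome 7 and 9 on chromosome 12, and 1 lies on chromosome 14, which carries Mettl3. Without both KCl-treated KO replicate 1 libraries 81 genes were 2-fold apart, again with all 8. The soma libraries in these counts are the ones that chose the 8 genes. Nothing is therefore read from the presence of the 8 in the soma count or in those over all libraries.

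**Figure D3:**
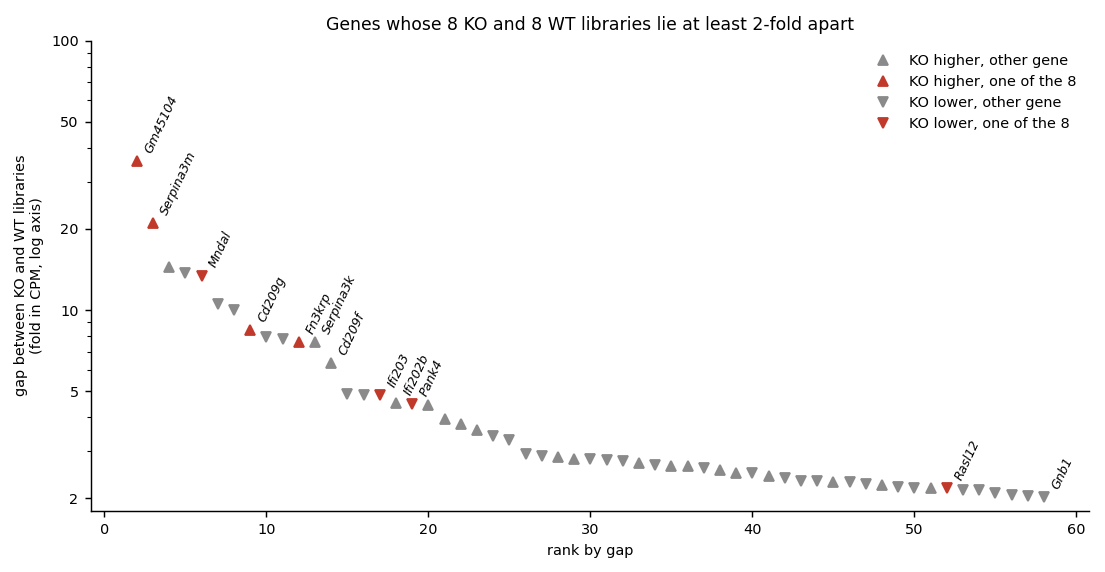
Genes whose 8 KO and 8 WT libraries lay at least 2-fold apart, from rank 2 to rank 58, ordered by the gap, which is the lowest CPM of the higher genotype divided by the highest CPM of the lower genotype (log axis). Triangles point up where KO was higher and down where it was lower. The 8 genes are in red, from rank 2 (Gm45104) to rank 52 (Rasl12).

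Likeness to other genes was measured as Pearson's r of log2(CPM + 1) over the 16 libraries, as a description, since the libraries share the genotype split. Mndal and Ifi203 were among the genes most like each other (r = 0.987). For the other genes the most alike were Tmem181b-ps and 4732496C06Rik for Pank4 (r = 0.977 and 0.971), Trhr and Hk2 for Rasl12 (r = 0.990 and 0.975), Gm45104 and Rbm45 for Fn3krp (r = 0.979 and 0.975), Fn3krp and Cd209g for Gm45104 (r = 0.979 and 0.967), Cd209f and Cd244a for Cd209g (r = 0.995 and 0.969), and Eif3s6-ps2 and Serpina3k for Serpina3m (r = 0.983 and 0.978). These values are dominated by the genotype split that the genes were chosen for.

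KCl moved none of the 8 genes past the test. KCl depolarizes neurons and induces activity-dependent genes, and edgeR called 1.40% of all genes in WT soma (2-fold and an adjusted p of 0.05), 1.17% in KO soma, 1.16% in WT neurites and 1.11% in KO neurites. Of the 8 genes 0 were called in each, also by DESeq2, and 0 had an unadjusted p under 0.05 except Serpina3m in KO neurites. Its log2 KCl response there was 1.70 (SE 0.66, edgeR adjusted p = 0.225) and rests on the replicate 1 library with raised glial markers (28.4 CPM against 5.19 CPM in replicate 2). The other KCl responses lay between −0.73 for Rasl12 in KO neurites (SE 0.35, adjusted p = 0.289) and 0.73 for Cd209g in KO soma (SE 0.65, adjusted p = 0.571). In WT neurites 6 of the 8 were tested, since Gm45104 and Serpina3m had too few counts. The difference between the KCl responses of KO and WT was called for 0 of 8 genes in soma and in neurites, where 0% of all genes were called. The largest was that of Serpina3m in neurites, 2.43 (SE 1.13, adjusted p = 0.869), which rests on the same replicate 1 library. In this neurite contrast Serpina3m and Gm45104 passed the filter through KO alone.

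Between neurites and soma no call was made for the 8 genes, which does not show equal levels. Across the 4 comparisons edgeR called 0 of those tested, and 0% of all genes. Nothing is therefore read from the 0 for the 8 genes. The study's own DESeq2 analysis reported many RNAs enriched in neurites or in soma of WT neurons. All 8 were tested in KO, 7 in untreated WT (Serpina3m had too few counts) and 6 in WT with KCl (Gm45104 and Serpina3m had too few). An unadjusted p under 0.05 was reached by 1 gene in WT KCl (Pank4) and 1 in KO Ctrl (Rasl12). DESeq2 called none of the 8 either. In WT, Pank4 had a log2 difference of −0.60 (SE 0.29, edgeR adjusted p = 0.723) untreated and −0.68 (SE 0.29, adjusted p = 0.972) with KCl. In KO the values were 0.07 (SE 0.30) and 0.16 (SE 0.30), and the difference between genotypes in this contrast was not tested. Rasl12 was at 1.05 (SE 0.35, adjusted p = 0.220) in untreated KO and between −0.09 and 0.20 in the other 3 groups. Gm45104 was at 0.89 (SE 0.50) and Ifi203 at 0.78 (SE 0.48) in untreated KO. In KCl-treated KO, Mndal was at 0.91 (SE 0.52) and Ifi203 at 0.88 (SE 0.48). Cd209g lay between 0.45 and 0.83 in the 4 groups (SE 0.65 to 0.79). With edgeR on the 4 untreated WT libraries alone, Pank4 was called lower in neurites, among 3203 genes called of 23200 tested.

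The genes directly beside Pank4, Fn3krp and Gm45104 were not called, and paralogues moved beside Ifi203, Cd209g and Serpina3m. Within 1 Mb of any of the 8 starts, 260 other genes were tested in neurites and 19 were called (7.31%, against 3.07% of all genes), 10 higher and 9 lower. In soma, 0 of 273 were called untreated and 3 of 283 with KCl (1.06%). Of the 19, 8 were paralogues of the 8 genes (Ifi202b, Cd209f, Serpina3g, Serpina3h, Serpina3j, Serpina3k, Serpina3l-ps and Serpina3n). One genotype was below 10 counts on average for 7 of the 19, which passed the filter through the other genotype alone. Around Pank4, Rasl12, Fn3krp and Gm45104, 9 of 174 tested genes were called (5.17%), and the median absolute log2 difference was 0.40 against 0.39 over all genes.

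**Figure D4:**
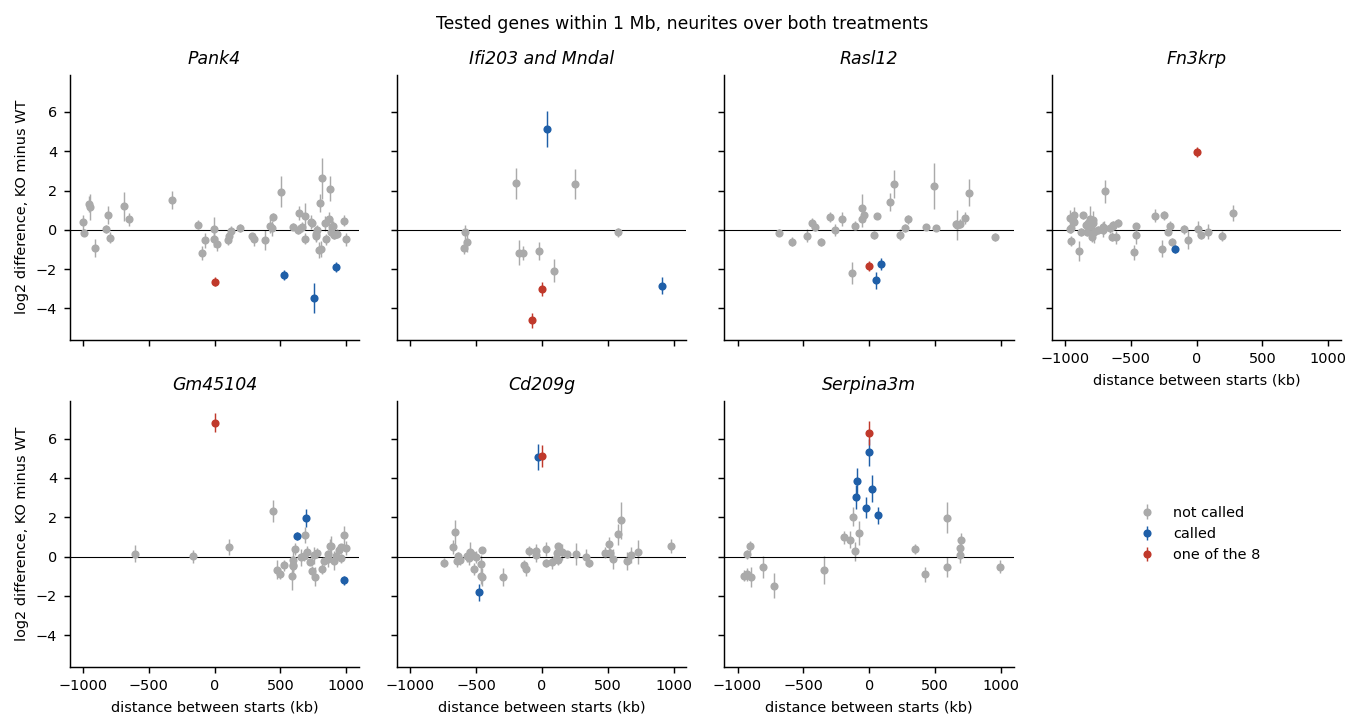
Log2 difference between KO and WT in neurites over both treatments for every tested gene within 1 Mb of the start of each gene, by distance between starts in kb, with bars for the standard error. The 8 genes are in red, other called genes in blue, and called paralogues stand beside Ifi203, Cd209g and Serpina3m.

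The nearest neighbours show the contrast. On either side of Pank4, Hes5 had a log2 difference of −0.46 (SE 0.43), Gm20421 0.02 (SE 0.63), Plch2 −0.72 (SE 0.37) and Pex10 −0.54 (SE 0.25), with edgeR adjusted p from 0.217 to 0.990. Gnb1, which encodes a G protein subunit and starts 527 kb away, fell (log2 −2.30, SE 0.26, adjusted p = 0.0011). Beside Fn3krp, Wdr45b (0.03, SE 0.24), Rab40b (−0.50, SE 0.46) and Tbcd (−0.28, SE 0.17) were not called, and Foxk2 fell (−0.97, SE 0.20, adjusted p = 0.0263). Next to Rasl12, Pdcd7, Ubap1l and Mtfmt were not called, while the lncRNA Gm47270 fell (−2.58, SE 0.42, adjusted p = 0.00819), as did Ankdd1a (−1.75, SE 0.32, adjusted p = 0.0155). The nearest tested genes of Gm45104 are the pseudogenes Gm9521 (0.01, SE 0.34), Gm6065 (0.15, SE 0.44) and Gm4880 (0.50, SE 0.40) and Mill2 (2.32, SE 0.57, adjusted p = 0.0505), and none was called. On the other side of Cd209g from Cd209f, 4932443L11Rik (0.38, SE 0.34) and Evi5l (−0.33, SE 0.21) were not called. Within 1 Mb, 3 genes were called around Pank4, all lower and Gnb1 among them. Around Gm45104, 2 were called higher and 1 lower, beyond its nearest genes. Gnb1, Foxk2 and Ankdd1a were named after their values were seen.

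Of the m6A methyltransferase complex (8 genes, all tested), edgeR called 0 in neurites, with 2 at an unadjusted p under 0.05, and DESeq2 called 1, Mettl3. Without both KCl-treated KO replicate 1 libraries edgeR called Mettl3 too (log2 −1.27, adjusted p = 0.0108). Among cell type markers, edgeR called 0 of 12 for microglia and macrophages (median log2 1.62, 6 at an unadjusted p under 0.05, 4 by DESeq2), 0 of 10 for astrocytes (median 1.58, 7 and 6), 0 of 8 for the oligodendrocyte lineage (median 3.33, 4 and 4), 0 of 10 for fibroblasts and vessels (median 1.01, 2 and 2) and 1 of 10 for neurons, Map2, lower (median −0.81, 5 and 1). Without those libraries the medians were 0.76, 0.36 and 0.02 for the glial lists, −0.67 for fibroblasts and vessels and −0.45 for neurons, of which 3 were called (Map2, Syt1 and Gad2). All 8 genes were called in neurites without those libraries as well, with log2 differences of −2.47 for Pank4, −4.66 for Mndal, −2.96 for Ifi203, −1.65 for Rasl12, 3.95 for Fn3krp and 6.76 for Gm45104 beside the values given above for Cd209g and Serpina3m.

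**Figure D5:**
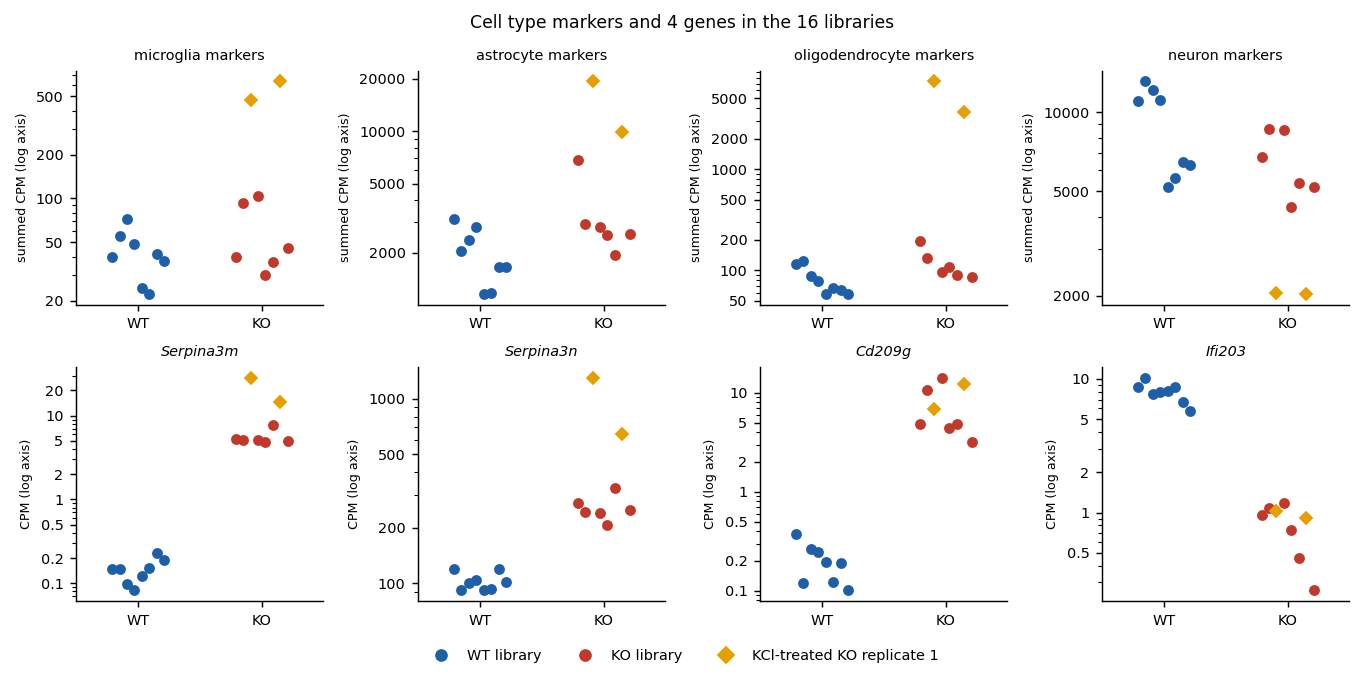
Summed CPM of 4 lists of cell type markers (top) and CPM of Serpina3m, Serpina3n, Cd209g and Ifi203 (bottom) in the 16 libraries, on log axes, with WT in blue, KO in red and both KCl-treated KO replicate 1 libraries as orange diamonds. The diamonds are the highest KO points for the glial lists, Serpina3m and Serpina3n, and lie among the other KO points for Cd209g and Ifi203.

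In DART-seq, which marks m6A by C-to-U editing near methylated sites in WT RNA, none of the 8 genes is listed. The deposited tables hold 5643 RNAs and 18231 sites, and no listed site falls within the body of any of the 8 genes. Of the genes tested in untreated soma, 23.4% are listed. The study's methods required a minimum number of reads at a site, which genes with few WT counts may not reach. The tables give no depth per gene, and not being listed does not show that an RNA carries no m6A.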

How the data were processed

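RNA-seq was done on 16 libraries in 8 groups of 2. The study's methods say that untreated and KCl-treated neurons shared a litter, and the labels do not say that replicate numbers mark litters. The authors aligned reads to mm10 with STAR 2.7.7a and deposited raw counts per gene from featureCounts 2.0.1 on exons of the Ensembl annotation, with multi-mapping reads counted and strand not used. The deposited DART-seq tables hold site counts, a score per RNA that sums editing fractions, and a fraction edited per site, made by the authors and pooled over libraries. They were used only for whether a gene is listed.

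The 8 genes and all gene lists were chosen with earlier results of these data known. From the deposited counts, genes with a mean of at least 10 counts over the libraries compared were tested with edgeR 4.0.16 (R 4.3.3, quasi-likelihood, TMM, a single fit of 8 groups). P-values were adjusted by Benjamini-Hochberg over all genes tested. The SE of an edgeR log2 difference was derived from its quasi-likelihood F statistic (absolute log2 difference divided by the square root of F). A gene was called at 1.5-fold (2-fold for the KCl response) and an adjusted p of at most 0.05. All 37 mitochondrially encoded genes had 0 counts and were removed. Alternatives were DESeq2 1.42.0, no filter, a stricter filter of 100, a replicate block, the libraries of a comparison alone and leaving out libraries. Named beside the 8 were the 2 nearest tested genes on each side, the 2 genes most alike over 16 libraries and the members of the lists. Any other gene was named after its values were seen. A few genes that these rules name are not reported here. Reads carry no molecular identifiers, so counts are not independent molecules. Figures were drawn with matplotlib 3.10.9.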

Additional observations from a re-analysis of the deposited data

How the results depend on the processing

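Over both treatments, 8 of 8 genes were called in neurites without any 1 library (8 to 8) and 7 with the 8 neurite libraries alone, where Rasl12 had an edgeR adjusted p of 0.0535. In untreated neurites the count of 7 became 2 to 4 without 1 library, and in KCl-treated neurites the count of 8 became 2 to 8 without 1 library and 0 with those 4 libraries alone. The KCl response in KO neurites went from 0 to 2 called (Rasl12 and Serpina3m; range 0 to 2) without KCl-treated KO neurite replicate 2. Neurites against soma in untreated WT gave 1 (Pank4) with those libraries alone. The causes were not tested. No direction of the 8 genes reversed in neurites.

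Same-numbered libraries did not all deviate together. Correlations of replicate differences ran from −0.134 to 0.18 in 7 pairs of groups and reached 0.891 between KCl-treated KO soma and neurites, whose replicate 1 libraries share raised glial markers. With the replicate block the 8 genes gave 7, 8 and 8 calls as before, and the count over all genes in neurites over both treatments was 1533 against 684.

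Counts over all genes moved more. Over both treatments they ran from 154 to 3478 (156 to 5675 without 1 library), in untreated neurites from 31 to 370 against 41 (4 to 14), and in KCl-treated neurites from 0 to 3425 against 98 (10 to 7229). For the KCl response they ran from 279 to 1891 against 338 in WT soma (1 to 190), 0 to 2078 against 277 in KO soma (28 to 3202), 201 to 851 against 255 in WT neurites (1 to 109) and 0 to 2164 against 247 in KO neurites (6 to 5403). Neurites against soma reached 3203, 1807, 3060 and 12 calls against 0, and the genotype difference of the KCl response 1441 in soma and 402 in neurites against 0. Chosen after seeing the data, windows of 0.5 Mb and 2 Mb gave 12 and 30 called neighbours against 19.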
